A study of Mus musculus with 9 samples.

Results

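The genes described here encode the classical axon guidance ligands and their receptors, that is the ephrins and Eph receptors, the semaphorins with their plexin and neuropilin receptors, the Slits and Robo receptors, and the netrins and Unc5 receptors. Membership was set by gene symbol and protein-coding type, a rule that uses no measured value, and 67 of the 49315 gene IDs in the count table were members. The 67 comprised 14 Eph receptors, 8 ephrins, 20 semaphorins of classes 3 to 7, 9 plexins, 2 neuropilins, 3 Slits, 4 Robos, 3 netrins and 4 Unc5 receptors, and thus 34 ligands and 33 receptors. Ntn3 also matches the symbols but was not analysed here. Expression was measured by RNA sequencing (RNA-seq) of cells sorted from co-cultures, with 3 libraries in each of 3 conditions. Astrocytes were primary neonatal cells of C57BL6 mito::mKate2 mice, which carry the red fluorescent protein mKate2 in their mitochondria under the broadly active CAG promoter. Tumor cells were SB28, a mouse glioblastoma cell line of C57BL6 origin, and after 2 days together with the astrocytes at a 1:1 ratio they were separated into cells without (mKate2-) and with (mKate2+) the astrocyte reporter. All conditions shared the medium, DMEM F12 with fetal bovine serum, N2 supplement, EGF and FGF, and no condition was grown alone or treated. The 9 libraries therefore describe 1 tumor cell line in contact with astrocytes, and no effect of the co-culture itself can be read from them. All 3 populations were sorted from 3 distinct co-cultures, so P values measure the spread between co-cultures of the same cell line. The sort gates and the serum and N2 concentrations are given differently in the sample labels and in the study's methods, and libraries were assigned by their titles.

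Guidance molecules were named for their part in steering growing axons, and the same proteins position migrating cells, pattern vessels and set boundaries between cell groups. Ephrins are bound to the membrane, by a lipid anchor in class A and by a transmembrane domain in class B, and signal to Eph receptor tyrosine kinases on a touching cell and back into their own cell. Class 3 semaphorins are secreted and act through neuropilin and plexin complexes, whereas the other vertebrate classes are membrane-bound and mostly engage plexins directly. Slits are secreted ligands of Robo receptors, and netrins are secreted ligands that repel through Unc5 receptors and attract through Dcc and its relative Neo1. In the brain, astrocytes and their precursors make many of these ligands, and gliomas are known to use several of them in migration.

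Levels are given as CPM, that is counts scaled to the library's total of assigned reads, in replicates 1, 2 and 3 of a condition, in that order, and CPM per kilobase of exon is used wherever levels of different genes are set side by side. Total counts per library lay between 24454561 and 39287841. Tests between conditions were quasi-likelihood tests of edgeR, and a gene was called higher or lower in tumor cells than in astrocytes when its adjusted P was below 0.05 and its log2 fold change was above 1 or below -1. Log2 fold changes are given ± SE with n = 3 libraries against 3. Libraries within a condition were not alike. Astrocyte replicate 3 was the highest of the 3 astrocyte libraries in 31 of the 56 members tested (55.4%), against 38.9% of all genes tested, and mKate2+ replicate 2 was the lowest of the 6 SB28 libraries in 23 of 44 members (52.3%), against 47.3% of all genes.

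The labelled cell types were checked against defining markers. The summed level of 15 astrocyte markers was 867, 870 and 1541 CPM in the astrocytes and 369 to 445 CPM in the 6 SB28 libraries, where Gja1 made up most of it. Of 11 astrocyte markers tested 9 (81.8%) were lower in both tumor populations, and Gja1 and Sox9 were not called. Of all genes tested, 22.4% were lower in mKate2- and 22.8% in mKate2+ cells. A test required more than 1 CPM in 2 or more libraries of the comparison. Gfap, Aqp4, Slc1a2, Fgfr3 and Fabp7, 5 of the 9, met this through the astrocytes alone and could only come out lower. In the mKate2+ comparison this also held for Slc1a3. Gja1 was at 168, 212 and 216 CPM in astrocytes and higher in every SB28 library, at 241 to 284 CPM, under the fold threshold. The glutamate transporter Slc1a3 was at 173, 177 and 236 CPM in astrocytes and at 0.560 to 2.38 CPM in SB28 libraries, whereas Gjb6 was listed at 0 counts in all 9 libraries. The astrocytes also held the oligodendrocyte lineage genes Olig1 (541, 241 and 304 CPM) and Olig2 (268, 159 and 155 CPM) with Sox10 at 0, 0.0611 and 0 CPM, whereas Olig1 and Olig2 were at 6.43 CPM or less in SB28 libraries. The summed level of 8 fibroblast markers was 1632, 1716 and 1304 CPM in astrocytes and 701 to 959 CPM in SB28 libraries, mostly Col1a2 (1023, 1110 and 838 CPM, against 386 to 590 CPM), but Dcn reached no more than 2.45 CPM and Lum no more than 0.512 CPM in any library, and of 6 fibroblast markers tested 1, Twist1, was called lower. Astrocyte replicate 3 stood apart in the water channel Aqp4 (59.7 CPM, against 5.64 and 6.82), Aldoc (362 CPM, against 55.6 and 33.8), the ciliated cell factor Foxj1 (75.9 CPM, against 8.91 and 6.73) and Flt1 (192 CPM, against 5.64 and 12.4). Of 5 ependymal cell markers Foxj1 alone exceeded 1 CPM in that replicate. Rarres2 (2.41, 1.96 and 0.768 CPM in astrocytes) and Tmem212 (0.245, 0.122 and 0 CPM) went the other way, and Dnah5 and Ccdc153 were at 0.655 CPM or less. Of 11 neuron markers, with a summed level of 72.5, 118 and 134 CPM in astrocytes and 39.1 to 49.9 CPM in SB28 libraries, Rbfox3 was at 0 counts in all 9 libraries and Dcx at 0.123 CPM or less, while Gad2 (16.5, 16.3 and 42.1 CPM), Stmn2 (11.4, 43.4 and 38.5 CPM) and Map2 (28, 44.2 and 37.5 CPM) were present in the astrocytes, and Gad2 and Stmn2 were called lower in both tumor populations. Gad2 and Stmn2 also met the requirement for a test through the astrocytes alone, so they could only come out lower. Tubb3 went the other way, with 13.2, 9.45 and 10.4 CPM in astrocytes and 18.2 to 24.8 CPM in SB28 libraries, and was called higher in mKate2+ cells. The part of this mixture in the values below was not tested, and in sorted bulk samples fewer cells of a type and less RNA per cell cannot be told apart.

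More members were called lower than called higher in tumor cells against astrocytes, in both tumor populations. Of the 56 members tested, 34 (60.7%) were lower and 7 (12.5%) higher in mKate2- SB28 cells than in astrocytes, while 22.4% of all 13356 genes tested were called lower and 11.5% higher. In mKate2+ SB28 cells 34 (60.7%) were lower and 8 (14.3%) higher than in astrocytes, against 22.8% and 12.2% of all 13342 genes tested. The median log2 fold change of the tested members was -1.70 in mKate2- and -1.85 in mKate2+ cells, and that of all genes tested was -0.04 and -0.02. With at least 10 counts required in every library the median was -1.22 in both, over 45 and 44 members, of which 25 and 24 were called lower. Of all genes under that filter, 2039 of 12220 were called lower in mKate2- and 2071 of 12216 in mKate2+ cells. Both comparisons use the same astrocyte libraries, and 7 members were higher and 34 lower in both. A gene was tested only if 2 or more of the libraries in the comparison exceeded 1 CPM, and 12 of the 34 lower members (Efnb3, Epha1, Ephb1, Ntn5, Plxnc1, Robo2, Robo3, Sema4d, Sema4f, Sema5b, Slit1 and Unc5c) passed it through the astrocytes alone and so could only come out lower. Among the other 44 members, 22 (50%) were lower and 7 higher in both tumor populations. Of these 22, Robo1 exceeded 1 CPM in no mKate2+ library (0.832, 0.535 and 0.966 CPM). In the mKate2+ comparison it too could therefore only come out lower. The full counts of each family below are to be read beside the same shares of all genes, 22.4% and 22.8% lower and 11.5% and 12.2% higher. Those shares include genes that passed the filter through the astrocytes alone. Counts of members without such genes, among them the 22 of 44, therefore have no matching share of all genes here. The remaining 11 members (Epha3, Epha5, Epha6, Epha8, Epha10, Plxna4, Plxnb3, Robo4, Sema3g, Sema4a and Unc5d) did not pass the filter in any comparison, and their highest value was 22.3 CPM, for Epha5 in astrocyte replicate 3 alone. Of the 32 ligands tested 5 were higher and 20 (62.5%) lower in mKate2- cells, and of the 24 receptors tested 2 were higher and 14 (58.3%) lower. Tested members were longer than the genes tested as a whole, with a median exonic length of 6851 against 4429 bases.

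**Figure D1:**
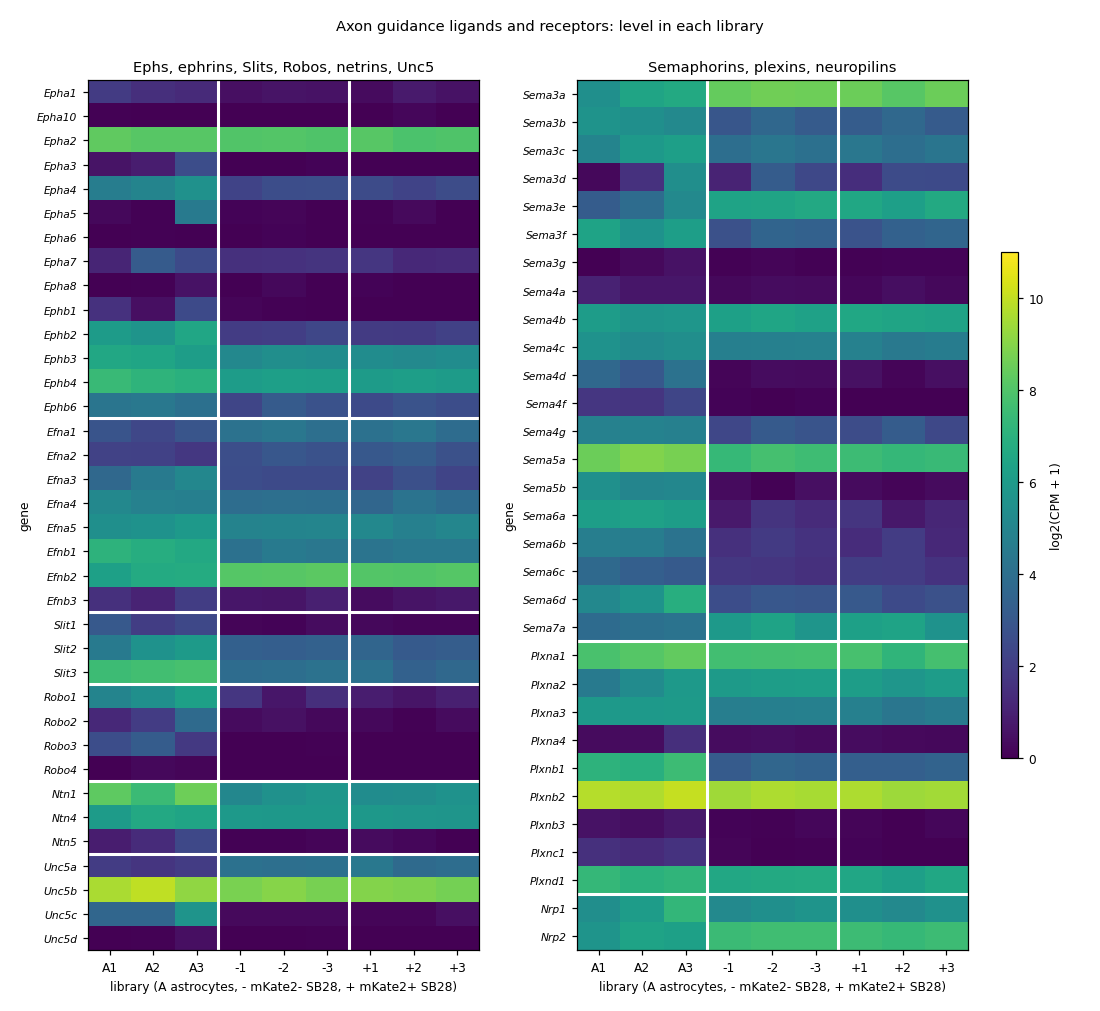
Level of each of the 67 members (rows, ordered by family) in each of the 9 libraries (columns), as log2(CPM + 1) on the color scale. The white vertical lines separate the 3 astrocyte, 3 mKate2- and 3 mKate2+ libraries; most rows are brighter in the astrocytes, and the 6 SB28 columns resemble each other, with Sema3a, Sema3e, Sema7a, Efnb2, Nrp2, Unc5a and Efna1 brighter there.

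The promoters of 3 ligands that were higher in both tumor populations are shown here so that the sequence before the start of genes that were higher in tumor cells can be read beside their levels. They are, of the higher members, those with the highest CPM per kilobase in mKate2- cells among genes whose RefSeq window (GRCm38.p6) ended at the base before the GENCODE gene start and held no annotated exon. Each is the 250 bases before the start, 5′ to 3′ on the gene's strand, with the GC box letters GGGCGG or their reverse complement CCGCCC in capitals.
Efnb2: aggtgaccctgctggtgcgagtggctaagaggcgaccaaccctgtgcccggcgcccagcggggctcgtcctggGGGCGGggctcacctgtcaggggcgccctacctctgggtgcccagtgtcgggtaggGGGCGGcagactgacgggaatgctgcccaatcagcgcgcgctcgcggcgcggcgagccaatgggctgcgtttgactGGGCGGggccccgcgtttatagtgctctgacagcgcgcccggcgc
Sema7a: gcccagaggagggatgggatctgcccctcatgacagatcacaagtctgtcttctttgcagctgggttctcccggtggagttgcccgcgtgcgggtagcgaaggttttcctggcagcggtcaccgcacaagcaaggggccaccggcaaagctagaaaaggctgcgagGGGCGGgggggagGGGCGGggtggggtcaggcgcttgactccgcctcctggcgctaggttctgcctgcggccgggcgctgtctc
Sema3e: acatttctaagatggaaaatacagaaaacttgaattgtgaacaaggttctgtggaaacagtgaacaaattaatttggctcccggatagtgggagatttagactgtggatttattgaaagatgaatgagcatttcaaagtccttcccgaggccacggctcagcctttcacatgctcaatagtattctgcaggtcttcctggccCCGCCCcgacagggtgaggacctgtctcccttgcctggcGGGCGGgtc
The Efnb2 window (chr8:8661243-8661492, minus strand) held 27 CG dinucleotides, 72% G and C bases and 3 GC boxes. That of Sema7a (chr9:57939862-57940111, plus strand) held 17 CG dinucleotides, 66.4% G and C bases and 2 GC boxes. The Sema3e window (chr5:14025026-14025275, plus strand) was poorer in CG, with 7 CG dinucleotides, 48% G and C bases and 2 GC boxes. RefSeq windows were matched for 59 of the 68 genes that fit the symbols, Ntn3 included, and gave 75 windows since some genes have several starts. GGGCGG on either strand was present in 53 of these 75 windows (70.7%) and in 32.7% of the 32851 windows of all genes. CCAAT on either strand was present in 26.7% of the members' windows and 33.8% of all, and TATAAA on either strand in 2.67% and 12.4%. The median number of CG dinucleotides was 15 in the members' windows and 6 in all windows. The windows of all genes were not restricted to protein-coding genes, as the members were. Whether these differences are particular to the members was not tested. Among the 7 genes higher in both tumor populations, 7 of 8 windows held GGGCGG. Windows were matched for 28 of the 34 lower genes, and among these it was present in 21 of 36. These are counts of letters and say nothing about which factors bind.

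Among ephrins, the ligands of the contact-dependent system, 2 of 8 were higher and 3 lower in both tumor populations, and 1 of the 3, Efnb3, passed the filter through the astrocytes alone. Efnb2, a transmembrane ephrin known from arterial vessels and migrating neural crest, had 74.7, 106 and 107 CPM in astrocytes, 272, 280 and 296 CPM in mKate2- cells and 268, 256 and 274 CPM in mKate2+ cells. All 6 SB28 libraries lay above all 3 astrocyte libraries. The log2 fold change against astrocytes was 1.58 ± 0.14 in mKate2- cells (adjusted P = 6.75e-05) and 1.55 ± 0.15 in mKate2+ cells (adjusted P = 0.000142). Efna1, a lipid-anchored ligand of Epha2, had 6.22, 4.07 and 6.52 CPM in astrocytes, 16.5, 19.5 and 15.1 CPM in mKate2- cells and 16.2, 19.8 and 14.0 CPM in mKate2+ cells. It was higher in both tumor populations, by 1.62 ± 0.23 (adjusted P = 0.000594) and 1.65 ± 0.26 (adjusted P = 0.00117) on the log2 scale, with no overlap between tumor and astrocyte libraries.

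The paralogous Efnb1 moved the other way. It had 136, 116 and 99.6 CPM in astrocytes, 16, 21.8 and 19.4 CPM in mKate2- cells and 17.9, 20.0 and 19.9 CPM in mKate2+ cells. The fitted log2 fold change was -2.61 ± 0.18 (adjusted P = 2.08e-05) and -2.53 ± 0.16 (adjusted P = 2.27e-05), and the tumor libraries lay far below the astrocytes. Per kilobase of exon Efnb1 was the most abundant ephrin of the astrocytes at 33.9 CPM, and Efnb2 that of mKate2- cells at 41.3 CPM and mKate2+ cells at 38.8 CPM. Efna3 had 12.3, 21.2 and 33.4 CPM in astrocytes and 3.44 to 5.37 CPM in the 6 SB28 libraries, and was lower, with log2 fold changes of -2.21 ± 0.33 (adjusted P = 0.000755) and -2.32 ± 0.38 (adjusted P = 0.00151). Efnb3, the third class B ephrin, was low everywhere, with 1.92, 1.16 and 3.02 CPM in astrocytes, 0.589, 0.529 and 0.972 CPM in mKate2- cells and 0.277, 0.484 and 0.644 CPM in mKate2+ cells. Its log2 fold changes were -1.53 ± 0.46 (adjusted P = 0.0205) and -2.04 ± 0.50 (adjusted P = 0.00975), and the first call was lost without mKate2- replicate 1 (adjusted P = 0.0701) or replicate 2 (adjusted P = 0.0731).

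Efna2, near the fold threshold, was called in 1 comparison with astrocytes and not in the other. It had 3.48, 3.42 and 2.48 CPM in astrocytes, 5.33, 6.99 and 5.76 CPM in mKate2- cells and 7.07, 8.50 and 5.68 CPM in mKate2+ cells. Both tumor populations lay above the astrocytes without overlap. The log2 fold change was 1.26 ± 0.28 in mKate2+ cells (adjusted P = 0.00633) and 0.96 ± 0.26 in mKate2- cells (adjusted P = 0.0122), so the latter passed the test but not the fold threshold, and it was called as well without astrocyte replicate 1 (1.05) or 2 (1.01), without mKate2- replicate 1 (1.05) or 3 (1.01), with no filter on low counts or with the length trend removed. Between the tumor populations themselves Efna2 differed by 0.29 ± 0.21 (unadjusted P = 0.203 by the same edgeR test), which is no difference beyond the spread. Efna4 (-0.99 ± 0.16 in mKate2- cells, adjusted P = 0.00107) and Efna5 (-0.72 ± 0.14, adjusted P = 0.00257) were not called. The 3 class A genes Efna1, Efna3 and Efna4 are neighbours on the minus strand of chromosome 3 (GRCm38, Efna1 at 89271733 to 89281142, Efna3 at 89313899 to 89322965 and Efna4 at 89333390 to 89338028), and of these Efna1 was higher in tumor cells, Efna3 lower and Efna4 just short of the fold threshold. Efna4 was called lower without astrocyte replicate 2 (-1.05 and -1.04) or replicate 3 (-1.09 and -1.10) and with upper-quartile normalization (-1.07 and -1.08). Antisense genes cover 14.1% of the exonic bases of Efna3 and 10.5% of those of Efna4, and without stated use of strand in the counting their reads cannot be told apart.

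Of the 14 Eph receptors, the tyrosine kinases that bind these ligands, 9 were tested, 7 were lower and 0 higher in either tumor population. Epha1 and Ephb1 passed the filter through the astrocytes alone and could only be lower, which leaves 5 of 7 lower. The 5 class B receptors, Ephb1 included, were lower in both. Ephb2 had 65.4, 51.5 and 89.8 CPM in astrocytes, 2.91, 3.15 and 4.09 CPM in mKate2- cells and 2.72, 2.60 and 3.39 CPM in mKate2+ cells. SB28 levels were 4.91% and 4.21% of the astrocyte mean, with log2 fold changes of -4.33 ± 0.25 (adjusted P = 1.21e-05) and -4.49 ± 0.25 (adjusted P = 1.41e-05). Ephb4, the main receptor of Efnb2, had 172, 142 and 125 CPM in astrocytes, 66.9, 72.9 and 69.8 CPM in mKate2- cells and 64.3, 70.9 and 64.5 CPM in mKate2+ cells. Its difference was near the fold threshold, at -1.05 ± 0.15 (adjusted P = 0.000503) and -1.06 ± 0.16 (adjusted P = 0.000943), and without astrocyte replicate 1 it was -0.91 and -0.92 and no longer called. Ephb3 was likewise near the threshold (-1.09 ± 0.16 and -1.05 ± 0.15) and fell short of it without astrocyte replicate 1, at -0.98 and -0.95, and in mKate2- cells the call was also lost without mKate2- replicate 1. Ephb6, which lacks kinase activity, was at -1.60 ± 0.27 and -1.72 ± 0.21. Ephb1 had 1.96, 0.367 and 4.47 CPM in astrocytes and 1 count in all mKate2+ libraries together, a ratio of pooled levels of 257 with a 95% counting interval of 45.7 to 10216. The ratio was 115 without astrocyte replicate 3.

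Epha4, a receptor for ephrins of both classes, had 24.6, 30.4 and 46.0 CPM in astrocytes, 3.64, 5.02 and 5.23 CPM in mKate2- cells and 4.66, 3.67 and 4.83 CPM in mKate2+ cells. Its log2 fold changes were -2.84 ± 0.26 (adjusted P = 7.77e-05) and -2.87 ± 0.26 (adjusted P = 9.09e-05). Epha2, the receptor most often described in glioblastoma, did not follow. It had 321, 283 and 282 CPM in astrocytes, 257, 268 and 248 CPM in mKate2- cells and 283, 238 and 249 CPM in mKate2+ cells, and the tumor libraries overlapped the astrocytes in the mKate2+ population. With log2 fold changes of -0.18 ± 0.11 (adjusted P = 0.184) and -0.13 ± 0.12 (adjusted P = 0.388) it was not called, and it was the most abundant Eph receptor per kilobase in every condition, at 63.1 CPM in astrocytes, 55.2 CPM in mKate2- and 54.9 CPM in mKate2+ cells. Epha7 was not called either (-1.17 ± 0.57, adjusted P = 0.107, and -1.32 ± 0.60, adjusted P = 0.0923), and it was called lower without astrocyte replicate 1 (-1.62 and -1.78) but was at -0.55 and -0.70 without astrocyte replicate 2. Epha3 had 0.491, 0.825 and 4.98 CPM in astrocytes and 0 counts in all mKate2+ libraries, which makes it at least 76.6-fold lower there with a floor of 3 counts over the group, or at least 24-fold without astrocyte replicate 3. Intervals and floors cover counting error only.

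**Figure D2:**
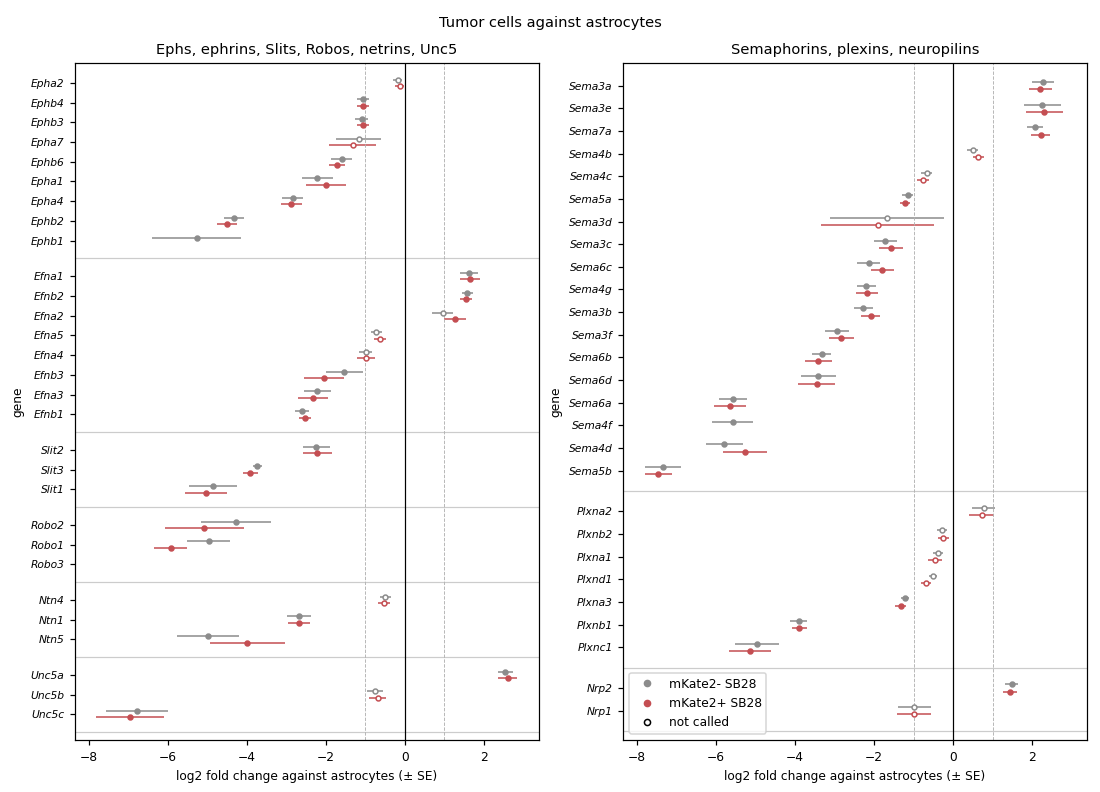
Log2 fold change of each tested member in mKate2- (gray) and mKate2+ (red) SB28 cells against astrocytes, from edgeR, with bars of ± 1 SE from 3 libraries against 3. Filled points were called, open points were not, the dashed lines stand at -1 and 1, and values from conditions with 3 or fewer counts (Robo3 in both, Ephb1 and Sema4f in mKate2+ cells) are left out; 31 members drawn in both colors sit below -1 and were called in both.

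Semaphorins formed the largest family. Of 18 tested, 3 were higher and 12 lower in both tumor populations, and without Sema4d, Sema4f and Sema5b, which passed through the astrocytes alone, 9 of 15 were lower. The 3 higher ones were the secreted Sema3a and Sema3e and the lipid-anchored Sema7a. Sema3a, the first semaphorin described as a growth cone repellent and a ligand of Nrp1 complexes, had 43.8, 85.9 and 103 CPM in astrocytes, 335, 390 and 378 CPM in mKate2- cells and 370, 282 and 369 CPM in mKate2+ cells. Every tumor library was above every astrocyte library, and the log2 fold change was 2.27 ± 0.28 (adjusted P = 0.000278) and 2.21 ± 0.29 (adjusted P = 0.000517). With 26.5 and 24.6 CPM per kilobase it was the most abundant semaphorin of both tumor populations. Sema3e, which binds Plxnd1 without a neuropilin, had 8.18, 13.7 and 34.7 CPM in astrocytes, 82.6, 85.1 and 100 CPM in mKate2- cells and 91.6, 72.4 and 102 CPM in mKate2+ cells. The fitted log2 fold change was 2.26 ± 0.46 (adjusted P = 0.00339) and 2.31 ± 0.47 (adjusted P = 0.00424). Without astrocyte replicate 3, the astrocyte library with the highest Sema3e level, it was 3.02 and 3.06. Sema7a, whose receptors are Plxnc1 and integrins, had 13.3, 15.9 and 17.4 CPM in astrocytes, 60.8, 82.6 and 51.8 CPM in mKate2- cells and 74.6, 83.3 and 47.4 CPM in mKate2+ cells. It was higher by 2.08 ± 0.20 (adjusted P = 8.68e-05) and 2.22 ± 0.24 (adjusted P = 0.000219), and replicate 3 was the lowest library of both tumor populations.

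The other class 3 genes went down or were not called. Sema3b, Sema3c and Sema3f were lower in both tumor populations, and their log2 fold changes in mKate2- cells were -2.27 ± 0.24, -1.72 ± 0.29 and -2.93 ± 0.30. Sema3d varied more within the astrocytes than between cell types, with 0.164, 1.96 and 42.5 CPM there, 1.14, 8.19 and 4.29 CPM in mKate2- cells and 1.69, 4.76 and 4.62 CPM in mKate2+ cells, and was not called (adjusted P = 0.344 and 0.275 by edgeR). Its direction against astrocytes turned without astrocyte replicate 3, from -1.67 to 2.06 in mKate2- cells and from -1.91 to 1.82 in mKate2+ cells. Sema3a, Sema3c, Sema3d and Sema3e lie on the plus strand of chromosome 5 (GRCm38, between 12383385 and 17730268), so that the adjacent Sema3a (13125414 to 13602565) and Sema3e (14025276 to 14256689) were both higher and Sema3c (17574281 to 17730268) was lower. Sema3b and Sema3f lie together on chromosome 9 (107597674 to 107609229 and 107681500 to 107710475), and both were lower.

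Membrane-bound semaphorins of classes 5 and 6 were called lower in 2 of 2 and 4 of 4 cases in each tumor population, of which Sema5b passed the filter through the astrocytes alone and could only be lower. Sema5b had 45.1, 31.4 and 32.7 CPM in astrocytes, 0.257, 0.0557 and 0.369 CPM in mKate2- cells and 0.250, 0.102 and 0.234 CPM in mKate2+ cells. Its level in the tumor populations was 0.625% and 0.537% of the astrocyte mean (log2 fold change -7.34 ± 0.45, adjusted P = 1.43e-05, and -7.46 ± 0.34, adjusted P = 6.88e-06). Sema6a, a transmembrane ligand of Plxna2 and Plxna4, had 70.8, 77.2 and 69.6 CPM in astrocytes, 0.699, 2.17 and 1.58 CPM in mKate2- cells and 2.25, 0.611 and 1.29 CPM in mKate2+ cells. Against astrocytes its log2 fold changes were -5.57 ± 0.35 (adjusted P = 1.56e-05) and -5.65 ± 0.41 (adjusted P = 3.67e-05). Sema6b had 25.3, 24.5 and 17.4 CPM in astrocytes and 1.40 to 2.85 CPM in the SB28 libraries, and was lower, with log2 fold changes of -3.33 ± 0.24 (adjusted P = 2.84e-05) and -3.41 ± 0.34 (adjusted P = 0.000152). Sema6c was at -2.14 ± 0.28 and -1.79 ± 0.30, and Sema6d at -3.41 ± 0.45 and -3.45 ± 0.47, which became -2.75 and -2.80 without astrocyte replicate 3.

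Sema5a, the relative of Sema5b, remained abundant in tumor cells. It had 365, 477 and 431 CPM in astrocytes, 166, 212 and 190 CPM in mKate2- cells and 184, 161 and 176 CPM in mKate2+ cells, and was the most abundant semaphorin of the astrocytes at 22.7 CPM per kilobase. The log2 fold change was -1.15 ± 0.14 (adjusted P = 0.000257) and -1.22 ± 0.13 (adjusted P = 0.000197), and it fell short of the threshold, at -0.96 and -0.88, once a gene length trend was removed. In class 4, Sema4d, the ligand of Plxnb1, was at 12.3, 7.15 and 16.6 CPM in astrocytes and between 0.102 and 0.416 CPM in SB28 libraries. Sema4f had 1 count in all mKate2+ libraries together, a pooled ratio of 316 with a 95% counting interval of 56.2 to 12513, and Sema4g was at -2.20 ± 0.24 and -2.18 ± 0.28. Sema4b (0.50 ± 0.14 and 0.64 ± 0.14) and Sema4c (-0.67 ± 0.14 and -0.76 ± 0.16) were not called.

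Among the receptors of the semaphorins, of 7 plexins tested, 3 were lower and 0 higher in both tumor populations, and without Plxnc1, which passed through the astrocytes alone, 2 of 6 (33.3%) were lower. Plxnb1 had 138, 123 and 187 CPM in astrocytes, 7.94, 11.3 and 10.1 CPM in mKate2- cells and 9.10, 9.04 and 10.4 CPM in mKate2+ cells. The fitted log2 fold change was -3.91 ± 0.21 (adjusted P = 8.83e-06) and -3.89 ± 0.19 (adjusted P = 8.75e-06). Its ligand Sema4d was called lower as well, but had passed the filter through the astrocytes alone and could only come out lower. Plxna3 had 58.5, 60.4 and 62.5 CPM in astrocytes, 25.1, 26.2 and 26.5 CPM in mKate2- cells and 26.5, 18.9 and 23.2 CPM in mKate2+ cells. The log2 fold changes were -1.21 ± 0.10 (adjusted P = 4.95e-05) and -1.33 ± 0.14 (adjusted P = 0.000189). Plxnc1, the Sema7a receptor, was at 1.92, 1.53 and 2.05 CPM in astrocytes, at 0.110, 0.0279 and 0.0335 CPM in mKate2- cells and at 0.0832, 0.0255 and 0.0293 CPM in mKate2+ cells. It was lower by log2 fold changes of -4.96 ± 0.55 (adjusted P = 0.000173) and -5.14 ± 0.53 (adjusted P = 0.00017), and by -5.72 without mKate2- replicate 1 and -5.80 without mKate2+ replicate 1. Sema7a was thus higher in cells in which its plexin receptor was near the limit of detection.

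Plxnb2 was the most abundant plexin of every condition, with 881, 814 and 1033 CPM in astrocytes, 681, 793 and 746 CPM in mKate2- cells and 791, 670 and 717 CPM in mKate2+ cells. The tumor libraries lay below the astrocytes without overlap, yet at -0.28 ± 0.13 (adjusted P = 0.095) and -0.25 ± 0.14 (adjusted P = 0.15) the difference did not pass the test. Plxnd1, the receptor of Sema3e, was at -0.51 ± 0.11 (adjusted P = 0.00525) and -0.69 ± 0.13 (adjusted P = 0.00319), under the fold threshold, with 11.8 CPM per kilobase or more in every condition mean. Plxna1 and Plxna2 were not called either, and Plxna2 would be called higher, at 1.17 and 1.11, without astrocyte replicate 3.

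The neuropilins, the ligand-binding partners of plexins for class 3 semaphorins, differed from each other. Nrp2, which binds Sema3b, Sema3c and Sema3f, had 50, 82.8 and 75.3 CPM in astrocytes, 178, 198 and 196 CPM in mKate2- cells and 187, 165 and 184 CPM in mKate2+ cells. It was higher in every tumor library, by 1.48 ± 0.17 (adjusted P = 0.000233) and 1.44 ± 0.18 (adjusted P = 0.000424). Nrp1, which binds Sema3a, had 41.7, 66.1 and 153 CPM in astrocytes, 35.6, 43.7 and 51.1 CPM in mKate2- cells and 43.0, 35.5 and 46.0 CPM in mKate2+ cells. The tumor values overlapped those of the astrocytes, and with -0.98 ± 0.42 (adjusted P = 0.0736) and -0.99 ± 0.42 (adjusted P = 0.0732) Nrp1 was not called, and it rested on single astrocyte libraries, being called lower without replicate 1 (-1.32 and -1.33) and near 0 without replicate 3 (-0.30 and -0.33). With all libraries included, DESeq2 called Nrp1 lower in mKate2+ cells, at -1.002 (adjusted P = 0.0225). In the tumor cells Nrp2 was thus higher while Sema3b, Sema3c and Sema3f were lower, and Sema3a was higher while Nrp1 was not called by edgeR.

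**Figure D3:**
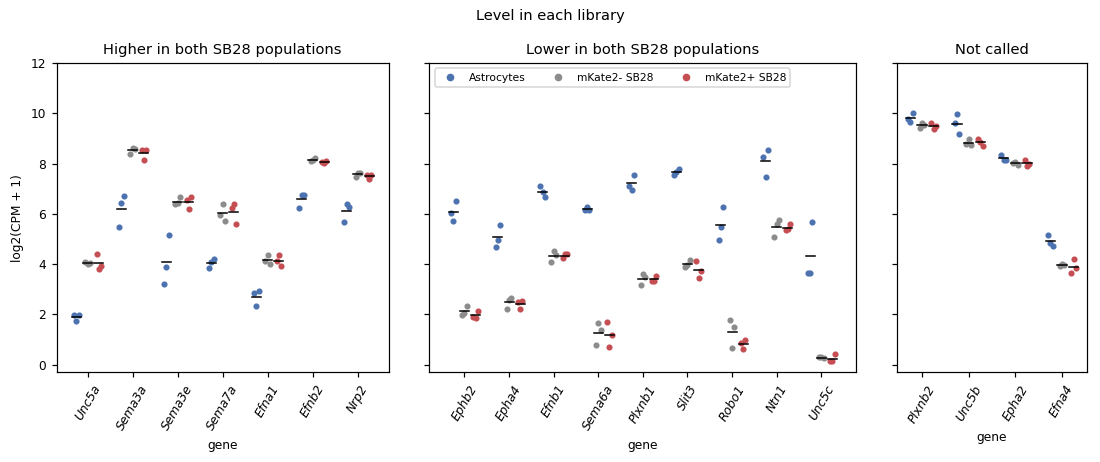
Level of selected members in each library as log2(CPM + 1), with 1 point per library and a black line at the mean of the 3 libraries of a condition (blue astrocytes, gray mKate2- and red mKate2+ SB28 cells). In the left panel all SB28 points lie above the astrocyte points, in the middle panel all lie below them, and the right panel holds 4 members that were not called, among them Plxnb2 and Unc5b, the most abundant per kilobase.

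In the Slit and Robo families 3 of 3 Slits and 3 of 3 Robos tested were lower in both tumor populations, but Slit1, Robo2 and Robo3 passed the filter through the astrocytes alone and could only be lower. In the mKate2+ comparison this also held for Robo1, so all 3 Robos tested could only be lower there. Slit3 was the most abundant Slit of every condition, with 184, 203 and 219 CPM in astrocytes, 13.9, 14.5 and 16.7 CPM in mKate2- cells and 16.4, 9.80 and 12.1 CPM in mKate2+ cells. The 2 tumor populations held 7.44% and 6.33% of the astrocyte mean, with log2 fold changes of -3.73 ± 0.12 (adjusted P = 3.11e-06) and -3.91 ± 0.19 (adjusted P = 9.32e-06), and the former was the smallest adjusted P of any member in that comparison. Slit2 had 21.8, 48.2 and 62.7 CPM in astrocytes, 9.34, 8.66 and 9.58 CPM in mKate2- cells and 10.9, 7.79 and 8.51 CPM in mKate2+ cells, and was lower, with log2 fold changes of -2.24 ± 0.34 (adjusted P = 0.000774) and -2.21 ± 0.36 (adjusted P = 0.00136). Slit1 had 7.32, 2.94 and 4.27 CPM in astrocytes, 0.110, 0.0836 and 0.302 CPM in mKate2- cells and 0.194, 0.102 and 0.117 CPM in mKate2+ cells. The log2 fold change was -4.85 ± 0.60 (adjusted P = 0.000306) and -5.03 ± 0.52 (adjusted P = 0.000177), and -5.58 without mKate2- replicate 3.

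Robo1, the receptor of Slits with the highest level per kilobase among the Robos in every condition, had 29.9, 43.1 and 75.5 CPM in astrocytes, 2.39, 0.585 and 1.81 CPM in mKate2- cells and 0.832, 0.535 and 0.966 CPM in mKate2+ cells. Log2 fold changes were -4.96 ± 0.54 (adjusted P = 0.000167) and -5.92 ± 0.42 (adjusted P = 3.45e-05). Robo2, beside Robo1 on chromosome 16, had 1.39, 2.87 and 12.8 CPM in astrocytes, 0.257, 0.418 and 0.168 CPM in mKate2- cells and 0.166, 0.0509 and 0.263 CPM in mKate2+ cells. Its log2 fold changes of -4.28 ± 0.89 (adjusted P = 0.00396) and -5.07 ± 0.99 (adjusted P = 0.00336) became -2.88 and -3.69 without astrocyte replicate 3. Robo3, known from commissural axons crossing the midline, had 5.03, 8.25 and 2.59 CPM in astrocytes, 2 counts in all mKate2- libraries and 0 in all mKate2+ libraries. The pooled ratio was 244 in mKate2- cells, with a 95% counting interval of 67.1 to 2017, and the level was at least 193-fold lower in mKate2+ cells with a floor of 3 counts over the group. Robo4, an endothelial receptor, reached no more than 0.183 CPM in any library.

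Netrins were lower or not called, and of the Unc5 receptors tested Unc5a was higher, Unc5c lower and Unc5b not called. Ntn5 and Unc5c passed the filter through the astrocytes alone and could only come out lower. Ntn1, the founding netrin, had 309, 178 and 376 CPM in astrocytes, 33.2, 46.9 and 53.3 CPM in mKate2- cells and 39.7, 41.3 and 47.1 CPM in mKate2+ cells. Its log2 fold changes were -2.68 ± 0.30 (adjusted P = 0.000191) and -2.68 ± 0.27 (adjusted P = 0.000162), and no tumor library reached an astrocyte library. Ntn4, a basement membrane netrin, had 65.5, 100 and 83.6 CPM in astrocytes, 61.0, 57.1 and 56.8 CPM in mKate2- cells and 57.1, 54.4 and 52.2 CPM in mKate2+ cells. With -0.49 ± 0.15 (adjusted P = 0.019) and -0.53 ± 0.16 (adjusted P = 0.0225) it was under the fold threshold, and per kilobase it was the leading netrin of the tumor cells (15.6 and 14.6 CPM, against 7.08 and 6.81 CPM for Ntn1), whereas Ntn1 led in the astrocytes (45.9 CPM, against 22.2 CPM for Ntn4). Ntn5 had 0.859, 1.53 and 4.16 CPM in astrocytes, 0.0368, 0.0557 and 0.101 CPM in mKate2- cells and 0.250, 0.127 and 0 CPM in mKate2+ cells. Against astrocytes its log2 fold changes were -4.98 ± 0.79 (adjusted P = 0.000976) and -3.99 ± 0.95 (adjusted P = 0.00804). It was at -4.85 without mKate2+ replicate 1, and 23.4% of its exonic bases are shared with Sec1.

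Unc5a, a netrin receptor that mediates repulsion, had 2.90, 2.29 and 2.93 CPM in astrocytes, 16.1, 15.1 and 15.5 CPM in mKate2- cells and 20.1, 12.9 and 14.2 CPM in mKate2+ cells. The tumor level was 575% and 580% of the astrocyte mean, the highest fold among the members higher in tumor cells with all libraries included, though below Sema3e without astrocyte replicate 3 (2.54 ± 0.19, adjusted P = 3.18e-05, and 2.61 ± 0.24, adjusted P = 0.000107, on the log2 scale). Unc5c of the same family had 11.4, 11.5 and 50.7 CPM in astrocytes, 0.221, 0.223 and 0.201 CPM in mKate2- cells and 0.111, 0.102 and 0.351 CPM in mKate2+ cells. The log2 fold changes were -6.78 ± 0.78 (adjusted P = 0.000208) and -6.95 ± 0.86 (adjusted P = 0.000384). These became -5.70 and -5.88 without astrocyte replicate 3, and the latter was -7.71 without mKate2+ replicate 3. Unc5b exceeded both in level, with 777, 999 and 579 CPM in astrocytes, 444, 508 and 422 CPM in mKate2- cells and 499, 468 and 415 CPM in mKate2+ cells. Its tumor libraries lay below the astrocytes without overlap, but the log2 fold change of -0.76 ± 0.20 (adjusted P = 0.0114) and -0.69 ± 0.21 (adjusted P = 0.0221) was under the threshold. The attractive netrin receptor Dcc was at 0.0736 CPM or less in every library, while its relative Neo1 was at 127, 151 and 218 CPM in astrocytes and between 185 and 235 CPM in SB28 libraries and was not called.

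Ordered by CPM per kilobase, the same receptors led in all conditions. In the astrocytes Unc5b (125 ± 33.6, SD, n = 3) and Plxnb2 (118 ± 14.6) came first and did not differ beyond their spread, since their order changed between libraries, and Epha2 (63.1 ± 4.72) came next. The ligand Ntn1 (45.9 ± 16.1) followed, but in replicate 2 it lay below 4 members with lower means. Efnb1, Slit3, Ephb4 and Plxna1, at 30.5 to 33.9 CPM per kilobase, were not in the same order in every astrocyte library. In mKate2- cells the order Plxnb2 (95.9 ± 7.29), Unc5b (73.2 ± 7.15), Epha2 (55.2 ± 2.11), Efnb2 (41.3 ± 1.78) and Sema3a (26.5 ± 2.09) was the same in each of the 3 libraries. The mKate2+ cells had the same 5 at the top, with Plxnb2 at 94.0 ± 7.90, Unc5b at 73.6 ± 6.75, Epha2 at 54.9 ± 4.97, Efnb2 at 38.8 ± 1.33 and Sema3a at 24.6 ± 3.64, and Plxna1, Sema7a and Nrp2 followed in both. In mKate2+ replicate 2 Sema7a exceeded Sema3a. Among the leading ligands, Ntn1, Efnb1 and Slit3 of the astrocytes were thus replaced by Efnb2, Sema3a and Sema7a in the tumor cells.

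The comparison of mKate2+ with mKate2- SB28 cells asks whether these genes differ between tumor cells that acquired astrocyte mitochondria and those that did not. Of the 44 members tested, 0 were higher and 0 lower by the criteria of a fold change above 1.5, an unadjusted P below 0.05 and a mean normalized count above 50, against 0.194% higher and 0.169% lower of all 11854 genes tested (23 and 20 genes). By edgeR 0 members had an unadjusted P below 0.05, DESeq2 called 0 as well, and by edgeR none of the 11854 genes tested had an adjusted P below 0.923. Under other settings of edgeR the smallest adjusted P was 0.0572 with no filter on low counts, 0.639 without mKate2+ replicate 1 and 0.783 with a replicate block. The fitted log2 fold changes of the members lay between -0.98 and 0.33 with a median of -0.02, and 20 were above and 24 below 0. In 30 of the 44 the 95% confidence interval stayed within a 1.5-fold change in either direction, and in the other 14 (Efna2, Efna3, Epha7, Ephb2, Ephb6, Robo1, Sema3b, Sema3d, Sema3f, Sema4g, Sema6a, Sema6b, Sema6c and Sema7a) the interval reached that size, so that a change of 1.5-fold in at least 1 direction was not excluded.

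The smallest unadjusted P was that of Plxnd1, with 96.3, 102 and 105 CPM in mKate2- cells and 91.4, 72.9 and 93.5 CPM in mKate2+ cells. The 2 populations did not overlap, and the log2 fold change was -0.19 ± 0.09 (unadjusted P = 0.066, adjusted P = 0.923). Robo1 followed at -0.98 ± 0.50 (unadjusted P = 0.0866, adjusted P = 0.923), with an interval of -2.13 to 0.18 and overlapping populations (2.39, 0.585 and 1.81 CPM against 0.832, 0.535 and 0.966 CPM). Slc1a3, the astrocyte marker, was at 1.10, 0.947 and 2.38 CPM in the same mKate2- libraries and at 0.832, 0.560 and 1.11 CPM in the mKate2+ libraries, and its part in the Robo1 values was not tested. The 95% intervals were -0.31 to 0.18 for Sema3a, -0.21 to 0.14 for Efnb2, -0.22 to 0.13 for Nrp2 and -0.16 to 0.24 for Epha2, and that of Sema7a was wider, at -0.45 to 0.71.

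**Figure D4:**
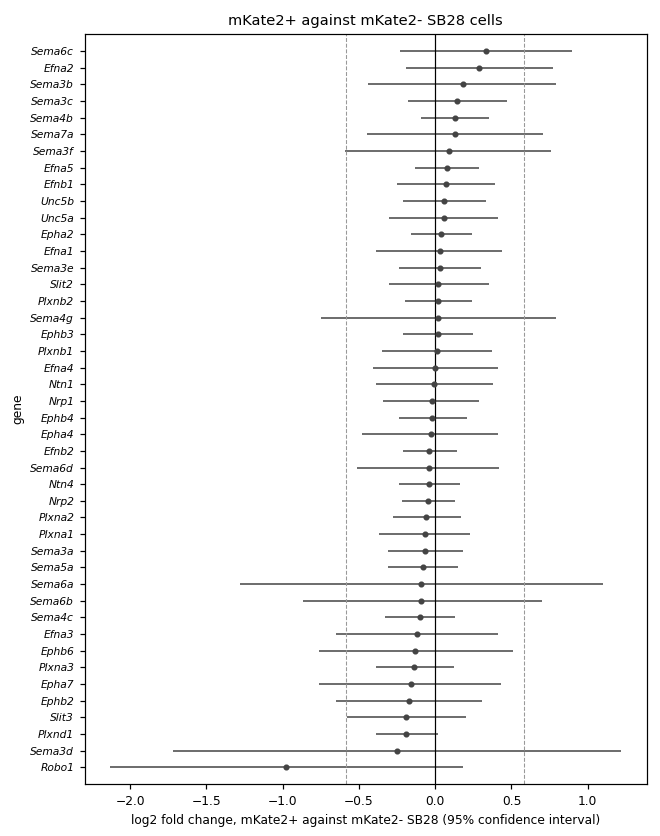
Log2 fold change of the 44 tested members in mKate2+ against mKate2- SB28 cells, from edgeR, with bars of the 95% confidence interval from 3 libraries against 3. The dashed lines mark a 1.5-fold change in either direction; every interval crosses 0, and those of Robo1, Sema3d and Sema6a are the widest.

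Other genes of the pathway were taken from lists of cue proteins, receptors and effectors. Of 13 other ligands and cue proteins 12 were tested, and 7 (58.3%) were lower and 0 higher in either tumor population, but 6 of the 7 (Draxin, Ntng1, Ntng2, Flrt1, Shh and Bmp7) passed the filter through the astrocytes alone and could only come out lower. Shh, a morphogen that also guides commissural axons, had 70.1, 110 and 45.4 CPM in astrocytes and 0.153 to 0.570 CPM in SB28 libraries, and was lower, with log2 fold changes of -7.34 ± 0.42 (adjusted P = 1.09e-05) and -7.96 ± 0.51 (adjusted P = 2.17e-05). Of 17 other receptors and co-receptors 11 were tested, with 2 higher and 6 (54.5%) lower in both, and 3 of the 6 (Cxcr4, Chl1 and Nrcam) passed through the astrocytes alone. Met, the receptor of hepatocyte growth factor, had 102, 158 and 125 CPM in astrocytes, 310, 335 and 357 CPM in mKate2- cells and 335, 286 and 372 CPM in mKate2+ cells (1.40 ± 0.16, adjusted P = 0.000194, and 1.44 ± 0.18, adjusted P = 0.00036). Adgrl3, a latrophilin that binds Unc5 and Flrt proteins, had 111, 135 and 113 CPM in astrocytes and 17.0 to 21.9 CPM in SB28 libraries (-2.59 ± 0.14, adjusted P = 8.73e-06, and -2.61 ± 0.13, adjusted P = 9.75e-06).

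The 32 cytoplasmic effectors, which carry the signal to the cytoskeleton, were all tested. There were 2 higher and 7 lower in mKate2- cells and 2 higher and 8 lower in mKate2+ cells, with medians of -0.20 and -0.19, and 5 of the lower ones (Srgap1, Dpysl4, Dpysl5, Fes and Gap43) passed the filter through the astrocytes alone. The shares lower, 21.9% and 25%, were near the 22.4% and 22.8% of all genes, and the share higher, 6.25%, was below the 11.5% and 12.2% of all genes. Crmp1, a collapsin response mediator downstream of Sema3a, had 12.6, 14.3 and 9.19 CPM in astrocytes, 62.2, 65.4 and 63.7 CPM in mKate2- cells and 64.2, 61.1 and 65.9 CPM in mKate2+ cells. It was higher by 2.42 ± 0.18 (adjusted P = 3.02e-05) and 2.48 ± 0.19 (adjusted P = 4.38e-05). Its relative Dpysl4 had 11.7, 9.81 and 10.3 CPM in astrocytes and no more than 0.166 CPM in SB28 libraries, and was lower, with log2 fold changes of -7.07 ± 0.54 (adjusted P = 3.43e-05) and -7.04 ± 0.56 (adjusted P = 5.3e-05), the latter -8.33 without mKate2+ replicate 1. Gap43, a growth cone protein, had 6.67, 5.14 and 13.2 CPM in astrocytes, 0.662, 0.947 and 1.47 CPM in mKate2- cells and 0.666, 0.764 and 1.11 CPM in mKate2+ cells. Log2 fold changes were -3.0 ± 0.46 (adjusted P = 0.000868) and -3.22 ± 0.44 (adjusted P = 0.000612), and between the tumor populations the difference was -0.23 ± 0.37.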

How the data were processed

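The 9 RNA-seq libraries were made from cells sorted out of co-cultures. Per the labels and the study's methods, the authors trimmed reads with Trimmomatic (version 0.36), aligned them to GRCm38 with STAR (version 2.5.2b) and deposited unique gene hit counts from featureCounts of Subread (version 1.5.2). The annotation release and the use of strand in the counting are not given in the sources used here, so reads of overlapping genes cannot be told apart. Names and exonic lengths were taken from GENCODE M21, and 1 gene that matched the symbols, Ntn3, was not analysed here.

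Counts were tested with edgeR (version 4.0.16, R version 4.3.3) after TMM normalization by quasi-likelihood tests with Benjamini-Hochberg adjustment, on genes that exceeded 1 CPM in 2 or more of the libraries in a comparison. Tumor cells were called against astrocytes when the adjusted P was below 0.05 and the log2 fold change was beyond 1 in either direction, and mKate2+ against mKate2- cells at a fold change above 1.5, an unadjusted P below 0.05 and a mean normalized count above 50. The steps were tested on simulated data. Members with full values were, per family, up to 3 higher and 3 lower with the smallest adjusted P among those called in both comparisons with astrocytes, the most abundant per length, and any called in 1 comparison alone. Members that lie just at a threshold, that were not called or that had few counts, and single marker and pathway genes, were also named after their values were seen. The members and lists were chosen with earlier results of these data known. Alternatives were DESeq2 (version 1.42.0), upper-quartile normalization, other filters, a fit to all 9 libraries, a replicate block, removal of a gene length trend and leaving out each library. One further pathway list is not reported here.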

Additional observations from a re-analysis of the deposited data

How the results depend on the processing

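Among the axon guidance genes, mKate2- cells had 7 to 8 higher and 32 to 34 lower members, and mKate2+ cells 8 to 9 higher and 33 to 35 lower, when each library was left out in turn, and of the tested members only Sema3d reversed its direction against astrocytes. Without 1 library it ranged from -2.42 to 2.06 in mKate2- cells and from -2.50 to 1.82 in mKate2+ cells. Of the values recomputed for the genes with full values, 917 kept their side of the threshold, 9 passed it and 6 lost it; those near the threshold were Efna2, Efnb3, Ephb4, Sema5a and Nrp1, and among the other members Efna4, Ephb3, Epha7 and Plxna2 crossed it too. Upper-quartile normalization moved the median log2 fold change of all genes to -0.12 in both comparisons with astrocytes. Between mKate2+ and mKate2- cells 0 members were called under every alternative run, whereas the all-gene counts depended on the setting. The 23 genes called higher became 62 with DESeq2, 224 without a filter on low counts, 46 in a fit to all 9 libraries, 15 with the gene length trend removed and 12 with more than 50 counts required in every library. The 20 called lower became 35 without a filter and 13 in the fit to all 9 libraries. Leaving out each library gave 6 to 310 higher and 16 to 70 lower genes, with 310 and 70 without mKate2+ replicate 1, 233 and 36 without mKate2+ replicate 3, and 6 higher without mKate2+ replicate 2, so that the share of all genes called in this comparison rests on single libraries. The causes were not tested. Low counts limit Robo3, Ephb1, Sema4f and the members that passed the filter through astrocytes alone.

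With the replicate number as a replicate block the calls among members against astrocytes stayed at 7 higher and 34 lower in mKate2- cells and 8 higher and 34 lower in mKate2+ cells, and the all-gene counts between mKate2+ and mKate2- cells were 13 higher and 33 lower. Sema3d, not called, was then at 0.24 and 0.26 in place of -1.67 and -1.91. Same-numbered libraries did not deviate together in every pair (correlations of 0.0537, 0.0418 and 0.0232 for mKate2- cells and astrocytes, -0.147, 0.0665 and 0.251 for mKate2+ cells and astrocytes, and -0.0037, 0.136 and 0.17 for the tumor populations). The populations were sorted from the same 3 co-cultures, but the labels do not say that a number marks a co-culture, so the numbers were not used as pairs.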

Other observations

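Several genes outside the ligand and receptor families were, like Sema3d and Epha5, far higher in astrocyte replicate 3 than in the other astrocyte libraries. The adhesion molecule Chl1, a partner of neuropilins, was at 1.39, 2.38 and 157 CPM in astrocyte replicates 1, 2 and 3. The contactin Cntn1 was at 0.491, 0.0917 and 21.2 CPM, the collapsin response mediator Dpysl5 at 0.204, 1.77 and 30.1 CPM, the glutamate transporter Slc1a2 at 4.46, 11.3 and 56.8 CPM and angiotensinogen, Agt, at 0.123, 0.0917 and 15.3 CPM. Chl1, Cntn1, Dpysl5, Slc1a2 and Agt were at 0.86 CPM or less in all 6 SB28 libraries. Whether replicate 3 differs from the other astrocyte libraries beyond their spread was not tested.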
